A study of Arabidopsis thaliana with 6 samples.

Results

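UBQ4 (AT5G20620) is a polyubiquitin gene of Arabidopsis thaliana, and its mRNA was 1 of 19 RNAs whose structure was probed in leaves. Its members are all rows listed under UBQ4, 302 positions of one amplicon out of 5550 positions in all, of which 133 are A or C (72 A and 61 C) and 169 are G or T. They were chosen by name and not by any measured value. The amplicon is part of the transcript and covers the end of the coding region and the start of the sequence that follows the stop codon.

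Polyubiquitin genes encode ubiquitin units joined head to tail in one reading frame, which are cut apart after translation into single ubiquitins. Ubiquitin is attached to other proteins and, as a chain, marks many of them for destruction by the proteasome. The protein is nearly the same in all plants, and the units of one gene and of related genes differ mostly at positions that do not change the amino acid. Ubiquitin mRNAs are abundant and are often used as reference transcripts in plants.

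In DMS mutational profiling, dimethyl sulfate (DMS) enters living tissue and methylates A and C bases whose pairing face is free, and the reverse transcriptase then puts a wrong base opposite the methylated one. The mismatch rate, the percentage of base calls other than the reference base, thus reads out DMS reactivity at A and C, whereas G and T serve as the control. A paired base, or one covered by a protein, is expected to react less.

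Leaves came from plants that were 3 weeks old, of the wild type, labelled Col-0 for the mock and Col for the DMS libraries and called Col here, and of chr2, whose name is that of the chromatin remodeller subunit CHR2 in the study's title, and the labels do not give the chr2 allele. Plants were treated for 30 min at room temperature under vacuum with 1% DMS or with water (mock) in the same buffer, and nuclear RNA was isolated. There were 2 Col and 2 chr2 libraries with DMS and 1 mock library of each genotype. The labels do not say whether replicate libraries were made from different plants. The p-values therefore describe the spread among these libraries alone, and that spread may be technical. With 1 mock library per genotype, the spread in tests against mock comes from the DMS pairs, and spread between mock replicates was not measured.

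Each UBQ4 position was read at least 25302 times in every library, and the median coverage lay between 46103 (chr2 mock) and 70544 (Col mock). UBQ4 took 3.40% to 4.98% of all base calls. The labels say that PCR products were pooled in equal parts, so this share is not read as the abundance of the mRNA. Primers fix the base at the ends of an amplicon, so the first and last 26 nt were left out of means, which rest on the 109 A/C positions between them (58 A and 51 C) whose rate was at most 5% in both mocks. Position numbers below start at 1 with the first base of the amplicon on its 5′ side.

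The frame that starts at position 2 reads the ubiquitin sequence and is open for 65 codons, up to the stop codon at positions 197 to 199. A second frame, from position 3, is open for 68 codons, so the choice rests on the known ubiquitin sequence and not on openness. The coding part is printed here 3 times as DNA on the transcribed strand, positions 1 to 199, copied from the reference bases of the deposited files. The 103 nt after the stop codon are not printed. In the first copy, capitals mark the 71 coding A and C bases whose rate with DMS passed the test against mock in both genotypes. In the second, capitals mark the 76 bases that the predicted minimum free energy fold of the whole amplicon leaves unpaired. In the third, capitals mark the 8 bases at which over 5% of reads of both mocks carried another base.
UBQ4 reactive A and C: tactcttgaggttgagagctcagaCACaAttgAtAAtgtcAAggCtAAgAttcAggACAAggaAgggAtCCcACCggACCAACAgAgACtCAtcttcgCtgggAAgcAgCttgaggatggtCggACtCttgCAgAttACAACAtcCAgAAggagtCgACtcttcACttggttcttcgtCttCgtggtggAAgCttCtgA
UBQ4 predicted unpaired: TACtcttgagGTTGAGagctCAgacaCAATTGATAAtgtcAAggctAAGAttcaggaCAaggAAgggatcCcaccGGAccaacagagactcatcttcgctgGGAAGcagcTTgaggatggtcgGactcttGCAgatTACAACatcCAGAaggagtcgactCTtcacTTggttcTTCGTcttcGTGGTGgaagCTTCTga
UBQ4 second base in mock: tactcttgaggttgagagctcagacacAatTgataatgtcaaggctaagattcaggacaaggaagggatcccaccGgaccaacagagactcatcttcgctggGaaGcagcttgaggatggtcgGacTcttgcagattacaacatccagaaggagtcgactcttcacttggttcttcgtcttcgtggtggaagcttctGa

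DMS raised the mismatch rate along nearly the whole UBQ4 amplicon in both genotypes. The mean A/C rate was 2.31% and 2.29% in the 2 Col DMS libraries, 2.63% and 2.64% in the 2 chr2 DMS libraries, 0.0897% in the mock of Col and 0.0943% in that of chr2. All 4 DMS libraries lay far above both mocks, by 25.7 times in Col and 28.0 times in chr2. At each of the 109 positions the rate of every DMS library exceeded that of both mocks, and at 86 of them the lowest DMS rate was over 10 times the higher mock rate.

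The test of DMS against mock was edgeR's quasi-likelihood test on mismatch counts, fitted over A/C positions of all 19 amplicons in all 6 libraries, with Benjamini-Hochberg adjustment. In Col, 85 of the 130 UBQ4 A/C positions tested rose with DMS (adjusted p of at most 0.05), where 13.2% of the 2597 positions tested in all amplicons did. In chr2, 84 of 130 rose, with 13.0% of 2597 in all amplicons. No UBQ4 A/C position fell in either genotype. Both genotypes shared 83 of these positions, 50 A and 33 C, of which 71 lie in the coding part and 12 after the stop codon.

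The 3 positions called in 1 genotype alone were close to the threshold in the other, and were picked out after their values were seen. A63 and A114 rose in Col (edgeR adjusted p = 0.0455 and 0.0463) and had adjusted p = 0.0521 and 0.0559 in chr2. C258 rose in chr2 (edgeR adjusted p = 0.0456) and had adjusted p = 0.0532 in Col. The difference between the genotypes in DMS response passed the test at none of the 130 positions, as given further below. Of the 109 positions between the primer ends, 25 passed in neither genotype. Their Col means ran from 0.199% at A117 to 4.87% at C276, and 12 of the 25 lie after the stop codon.

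These calls rest on having both libraries of each genotype. With any 1 of the 4 DMS libraries left out, 0 UBQ4 positions passed edgeR's test in either genotype, with 101 to 104 at an unadjusted p under 0.05, and the smallest adjusted p lay between 0.0837 and 0.104. DESeq2, run on all 6 libraries, called 105 positions in Col (38.2% of 2597 in all amplicons) and 108 in chr2 (38.9%). With the primer ends left out, an alternative chosen after seeing the data, it called 103 of 109 in Col (45.3% of 2166 in all amplicons) and 105 in chr2 (45.8%).

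The highest rates fell in the coding part between positions 105 and 149 and at a few positions further on. A149 had the highest mean, with 7.27% and 5.98% in Col and 6.74% and 6.86% in chr2, against 0.0337% and 0.0284% in the Col and chr2 mocks. The 2 genotypes overlapped there, and DMS exceeded mock by 7.60 on the log2 scale in Col and 7.88 in chr2 (edgeR adjusted p = 0.0366 and 0.0347). C139 reached 4.82% and 5.60% in Col and 6.27% and 6.09% in chr2, with 0.0478% and 0.0306% in the mocks. Both chr2 libraries were above both Col libraries at C139.

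C132 had 5.57% and 5.23% in Col and 4.94% and 5.80% in chr2, and A105 had 5.33% and 5.27% in Col and 5.41% and 5.07% in chr2. At both positions the 2 genotypes overlapped. A140 had 4.36% and 4.65% in Col and 4.72% and 5.85% in chr2, with both chr2 libraries the higher. C142 ran the other way, with 5.07% and 4.67% in Col and 4.64% and 4.34% in chr2, where both Col libraries were above both chr2 libraries. All 4 of these positions rose with DMS in both genotypes (edgeR adjusted p = 0.0366 in Col and 0.0347 in chr2 at each).

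The other 4 of the 10 highest positions are ones that the fold predicts as paired. A191, a coding base, had 4.02% and 4.72% in Col and 6.28% and 4.35% in chr2, so that the chr2 libraries lay on either side of the second Col library. A256 had 4.13% and 4.93% in Col and 5.32% and 5.75% in chr2, and C258 had 4.73% and 3.37% in Col and 5.50% and 5.90% in chr2. Both lie after the stop codon, and at both the chr2 libraries were above those of Col.

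C276 had 4.93% and 4.82% in Col and 6.60% and 6.43% in chr2, but also 1.05% and 1.20% in the mocks. DMS exceeded mock there by 2.21 on the log2 scale in Col and by 2.43 in chr2, which did not pass the test (edgeR adjusted p = 0.341 and 0.285). C276 is the last position before the 3′ primer end, and part of its mock mismatches are 1 other base, C276G, described below.

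**Figure D1:**
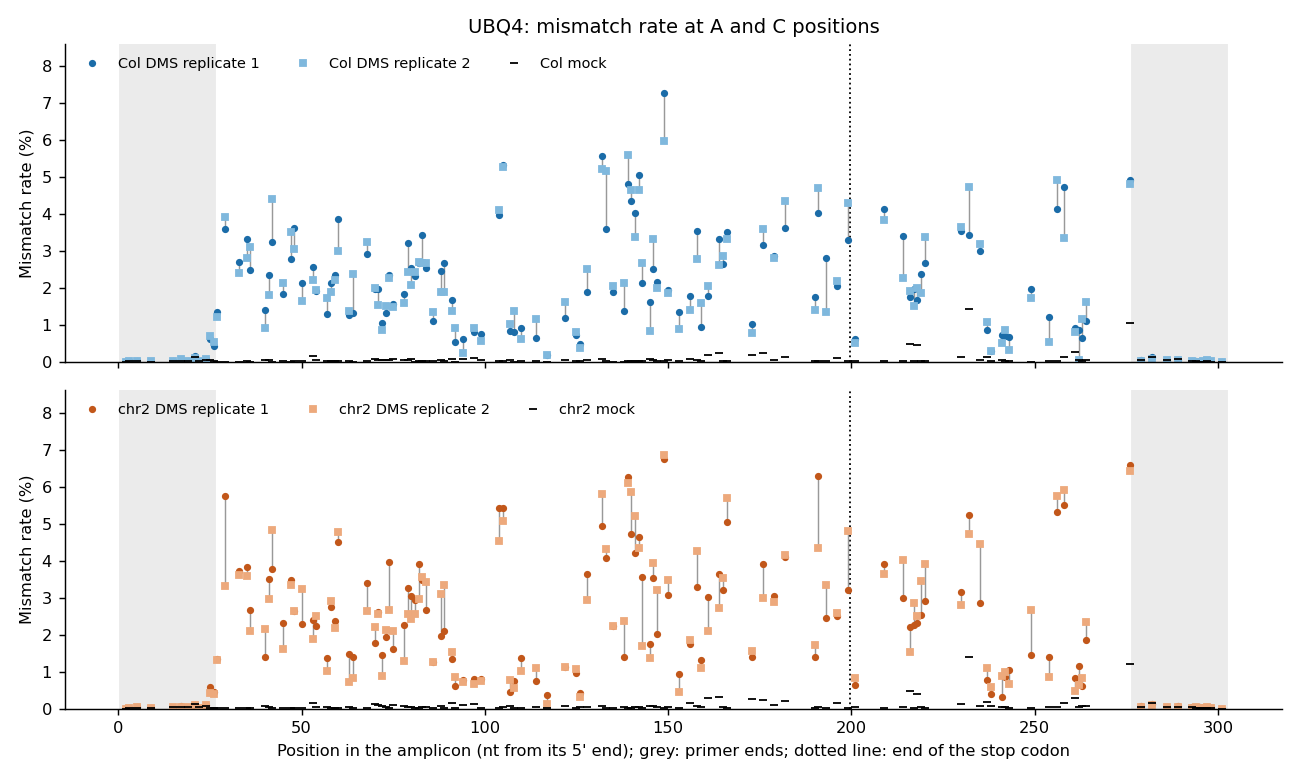
Mismatch rate in percent (vertical axes) at each UBQ4 A or C position within the mock limit (horizontal axis, nt from the 5′ end), for Col (upper) and chr2 (lower). Circles and squares are the 2 DMS replicates joined by a line, dashes are the mock library, grey areas are the primer ends, and the dotted line is the end of the stop codon. Rates with DMS reach 7.27% at A149, while mock rates stay under 0.5% at all but 2 positions between the primer ends.

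Between the primer ends, A was read as another base more often than C. With n = 2 libraries and the SD given, the mean rate at A was 2.49% ± 0.0424 (Col) and 2.83% ± 0.0315 (chr2), against 0.0667% and 0.0655% in the Col and chr2 mocks. At C it was 2.10% ± 0.0785 in Col and 2.42% ± 0.0154 in chr2, against 0.116% and 0.127%. The ratio of A to C was above 1 in every DMS library, from 1.14 to 1.23, and below 1 in both mocks, at 0.575 and 0.516.

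The control bases moved much less than A and C, but in UBQ4 they also rose as a group. At the 63 G positions the mean rate was 0.154% ± 0.00341 in Col and 0.144% ± 0.00919 in chr2, 1.52 and 1.29 times the mocks. At the 68 T positions it was 0.166% ± 0.0168 and 0.145% ± 0.0352, 3.78 and 3.10 times the mocks. These G and T means took only positions between the primer ends with at most 1% mismatches in both mocks, which leaves out T269 and G271. The limit for A/C was 5%, which keeps A232 and C276. Of the 159 UBQ4 G/T positions tested, 0 passed edgeR's test as higher with DMS in Col and 0 in chr2 (0% of 2840 in all amplicons). An unadjusted edgeR p under 0.05 was found at 22 in Col (190 of 2840 in all amplicons) and 15 in chr2 (208 of 2840). The median log2 difference from mock was 0.903 in Col and 0.616 in chr2, against 0.016 and -0.0046 over all amplicons. Of the 159 positions, 135 were higher with DMS in Col and 124 in chr2, and the cause was not tested. DESeq2 called 11 in Col (1.83% of 2840 in all amplicons) and 5 in chr2 (1.58%).

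Within the 5% limit, the 3 highest G/T positions all lie after the stop codon. T269 had 0.792% and 0.764% in Col and 1.16% and 0.677% in chr2 with DMS, and 1.12% and 1.31% in the mocks. G271 had 0.644% and 0.586% in Col and 0.751% and 0.717% in chr2, and 1.12% and 1.29% in the mocks. T285 had 0.316% and 0.415% in Col and 0.435% and 0.450% in chr2, and 0.344% and 0.362% in the mocks. The first 2 were lower in 3 or more of the 4 DMS libraries than in both mocks, and none of the 3 rose by edgeR (adjusted p of at least 0.929).

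The kind of wrong base differed between A and C. At A, T was the most frequent wrong call, with 66.1% ± 2.39 of mismatches in Col and 64.5% ± 0.348 in chr2, close to the 64.6% and 63.8% of the mocks. At C, reads as T were 51.0% ± 1.95 and 53.2% ± 1.77 of mismatches with DMS, against 61.1% and 62.2% in the mocks. C read as A made up 33.5% ± 1.46 in Col and 30.7% ± 1.83 in chr2, against 13.5% and 13.3% in the mocks. All 4 DMS libraries had over 2 times the mock share of C read as A.

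The signal was low in the primer ends. The 23 A/C positions in the primer ends had a mean rate of 0.0944% ± 0.00704 in Col and 0.0814% ± 0.0107 in chr2, against 0.0462% and 0.0437% in the mocks. Only C25 and A26, the last A/C positions of the 5′ end, rose in both genotypes (edgeR adjusted p = 0.0425 and 0.0366 in Col, 0.0394 and 0.0347 in chr2).

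Reactivity was not even along the amplicon. In successive windows of 25 nt, the mean A/C rate was lowest at positions 102 to 126, with 1.59% ± 0.0968 in Col and 1.64% ± 0.0942 in chr2 over 10 positions. It was highest in the window just after it, positions 127 to 151, with 3.42% ± 0.0843 in Col and 3.88% ± 0.137 in chr2 over 15 positions. The lowest library of the second window (3.36%) was above the highest of the first (1.70%). The remaining 8 windows had means between 1.76% and 3.02%.

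The Gini index, which is 0 when all positions react alike and approaches 1 when a few carry the signal, was 0.325 ± 0.0111 in Col and 0.335 ± 0.00541 in chr2. The difference of 0.00988 (95% interval from -0.0582 to 0.0780) did not pass limma's test over the 19 amplicons (adjusted p = 0.711). Two-sided exact permutation over the 4 libraries gave p = 0.667, where the smallest p it can give is 0.333.

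The fold predicted for the 302 nt by ViennaRNA has a minimum free energy of -92.0 kcal/mol. It places 44 of the 109 A/C positions in unpaired stretches and 65 in pairs. Predicted unpaired positions had a mean of 2.64% ± 0.00594 in Col and 2.95% ± 0.0160 in chr2, and predicted paired positions 2.08% ± 0.0197 and 2.42% ± 0.00526. In each of the 4 DMS libraries the unpaired mean was the higher one, by 1.22 to 1.28 times, whereas in the mocks it was the lower one, at 0.613 and 0.599 times. Of the 83 positions called in both genotypes, 34 were predicted unpaired and 49 paired.

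The area under the curve, the share of unpaired and paired position pairs in which the unpaired one has the higher rate (0.5 when the fold says nothing), was 0.607 ± 0.00420 in Col and 0.601 ± 0.00791 in chr2, and 0.372 and 0.417 in the mocks. Two-sided exact permutation between genotypes gave p = 0.667, in a design that cannot go below 0.333. With unpaired probabilities from the partition function in place of the single fold, the area was 0.741 (Col) and 0.743 (chr2). With pairs limited to a span of 100 nt it was 0.707 and 0.705. Both settings gave a higher area than the single fold of the whole amplicon.

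The coding part and the part after the stop codon differed in how the fold lined up with the rates. Among 84 coding positions, predicted unpaired ones had 1.61 ± 0.0373 times the rate of paired ones in Col and 1.56 ± 0.0200 times in chr2. Among the 25 positions after the stop codon the ratio was below 1, at 0.526 ± 0.0373 in Col and 0.494 ± 0.00681 in chr2, with no library above 0.552. In the Col and chr2 mocks it was 0.369 and 0.346 after the stop codon, and 0.811 and 0.809 in the coding part. The paired group after the stop codon includes A232 and C276, which had over 1% mismatches in both mocks. This split used the minimum free energy fold alone and was not made with the other folds. The mean over all A/C positions was 2.37% ± 0.00703 (coding) and 2.08% ± 0.0380 (after the stop codon) in Col, and 2.68% ± 0.0355 and 2.48% ± 0.161 in chr2.

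Of the 4 hairpin loops of the coding part, 3 hold A or C positions used in the means, and the loop at positions 183 to 188 holds none. The loop at positions 137 to 142, the part of the second printed sequence between its paired arms, averaged 4.01% ± 0.110 in Col and 4.51% ± 0.368 in chr2 over 5 A/C positions, all 5 called in both genotypes. The 5-nt loop at positions 102 to 106 averaged 4.68% ± 0.0222 and 5.11% ± 0.426 over 2 positions. The 10-nt loop at positions 27 to 36 averaged 2.70% ± 0.00479 and 3.13% ± 0.480 over 5 positions. After the stop codon, the loop at positions 218 to 221 averaged 2.34% ± 0.129 and 2.94% ± 0.492 over 3 positions, and the loop at positions 280 to 287 holds no A or C used in the means.

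Helices of at least 4 pairs ranged widely. The helix that closes the loop at 102 to 106 was the least reactive. Its lower part, positions 92 to 97 with 113 to 118, averaged 0.636% ± 0.0833 in Col and 0.683% ± 0.0197 in chr2 over 5 A/C positions, of which 1 was called in both genotypes. Its upper part, positions 98 to 101 with 107 to 110, averaged 0.877% ± 0.0434 and 0.810% ± 0.0506 over 4. In every DMS library the loop that these 2 helices carry was at 4.66% or more, while both helices were at 0.908% or less.

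Other predicted helices reacted as strongly as loops. The long-range helix between positions 65 to 70 and 255 to 260, which joins the coding part to the sequence after the stop codon, averaged 3.41% ± 0.0383 in Col and 4.06% ± 0.0891 in chr2 over 4 positions. The helix of positions 163 to 166 with 206 to 209 averaged 3.29% ± 0.165 and 3.92% ± 0.0412, and that of positions 179 to 182 with 189 to 192 averaged 3.20% ± 0.176 and 3.49% ± 0.299, each over 4 positions. The helix of positions 125 to 130 with 150 to 155 stayed lower, at 1.30% ± 0.000105 and 1.73% ± 0.105 over 5 positions. The helix between positions 65 to 70 and 255 to 260 spans more than 100 nt, so it cannot form in the fold with limited spans.

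Another 11 helices were predicted. The helix of positions 4 to 10 with 51 to 57 averaged 1.96% ± 0.0237 in Col and 1.91% ± 0.140 in chr2 over 3 A/C positions. Those of positions 17 to 20 with 43 to 46 and 23 to 26 with 37 to 40 hold 1 such position each, at 2.01% ± 0.214 and 1.96% ± 0.507 in the first and 1.17% ± 0.354 and 1.78% ± 0.532 in the second. These 3 pair coding bases with each other.

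In the arm that joins the coding part to the sequence after the stop codon, the helix of positions 72 to 75 with 250 to 253 averaged 1.56% ± 0.0317 in Col and 2.10% ± 0.204 in chr2 over 4 positions. Positions 79 to 82 with 244 to 247 averaged 2.56% ± 0.186 and 2.96% ± 0.468 over 4. Next to them, the pairs of positions 85 to 91 with 231 to 237 averaged 2.20% ± 0.0304 and 2.51% ± 0.401 over 7, and its mock means of 0.268% and 0.276% include A232, described below. All 3 span more than 100 nt.

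The helix of positions 119 to 123 with 156 to 160 averaged 1.87% ± 0.00914 and 1.98% ± 0.158 over 4 positions. That of positions 169 to 173 with 198 to 202, which holds part of the stop codon, averaged 1.77% ± 0.160 and 2.07% ± 0.455 over 3, and that of positions 213 to 217 with 222 to 226 averaged 2.15% ± 0.339 and 2.64% ± 0.222 over 3. The helix of positions 273 to 279 with 288 to 294 holds only C276, at 4.87% ± 0.0796 and 6.51% ± 0.116, and that of positions 266 to 270 with 295 to 299 holds no A or C used in the means.

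Some single positions went against the minimum free energy fold of the whole amplicon. The 3 lowest of the predicted unpaired ones, A238, C241 and A262, all lie after the stop codon. A238 had 0.300% and 0.301% in Col and 0.390% and 0.593% in chr2. C241 had 0.740% and 0.535% in Col and 0.318% and 0.878% in chr2. A262 had 0.869% and 0.0687% in Col and 1.14% and 0.637% in chr2, so its second Col library was near the mock rate of 0.0535%. The 3 highest of the predicted paired ones are C276, A256 and C258, given above. In the fold with spans of at most 100 nt, A238, C241 and A262 are paired and A256 and C258 are unpaired. These positions thus go against the first fold only, whereas C276 is paired in both.

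**Figure D2:**
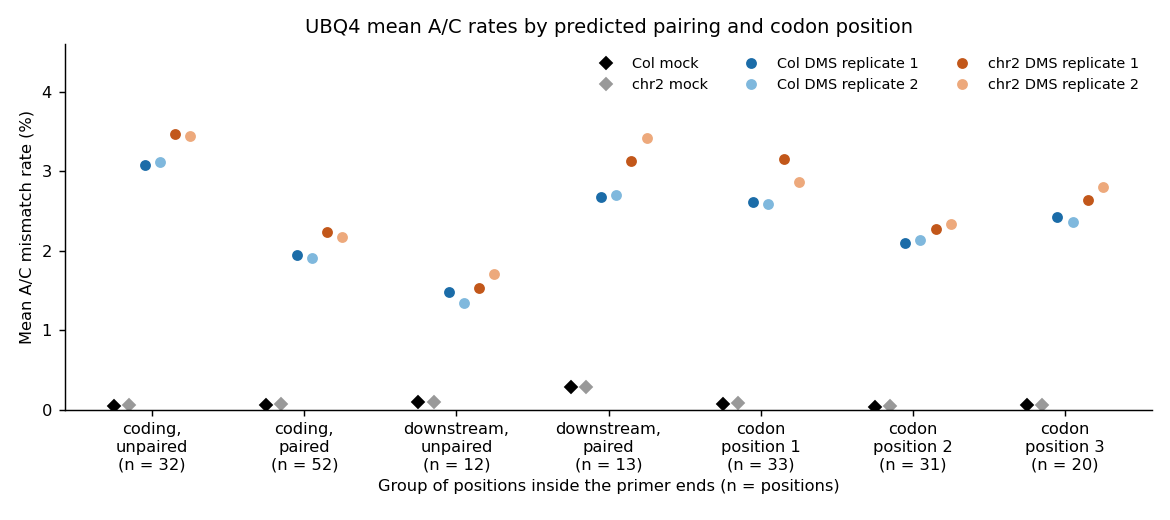
Mean A/C mismatch rate in percent (vertical axis) for groups of UBQ4 positions between the primer ends (horizontal axis, n is the number of positions), with 1 point per library, circles for DMS and diamonds for mock. Coding unpaired positions lie between 3.08% and 3.47% with DMS and coding paired ones between 1.90% and 2.24%, while after the stop codon the paired group is the higher one.

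Reactivity also differed between codon positions, a split that was made after the data were seen. The first codon position had 2.61% and 2.59% in Col and 3.16% and 2.87% in chr2 over 33 A/C positions. The second had 2.10% and 2.13% in Col and 2.28% and 2.34% in chr2 over 31, and the third 2.42% and 2.36% in Col and 2.63% and 2.80% in chr2 over 20. In each DMS library the first position was above the second, by 1.21 to 1.39 times. This held for A alone (1.26 to 1.45 times) and for C alone (1.33 to 1.55 times). In the Col and chr2 mocks the ratio was also above 1, at 1.76 and 1.89. For A alone the mocks had 0.953 and 0.963, and for C alone 1.91 and 2.05. Positions of one RNA are not replicates, so no test was run.

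Rates at A also differed with the base before it, a split made after the data were seen. An A that follows another A averaged 3.15% ± 0.114 in Col and 3.60% ± 0.0988 in chr2 over 14 positions. An A that follows a G averaged 2.42% ± 0.0544 and 2.69% ± 0.0688 over 24 positions, the largest group, and an A that follows a T averaged 2.67% ± 0.236 and 3.00% ± 0.138 over 3. An A that follows a C had the lowest mean, 2.01% ± 0.0865 and 2.36% ± 0.0674 over 17 positions. Every DMS library had a higher mean at A after A than at A after C, with 3.07% as the lowest value of the first and 2.40% as the highest of the second. By the base that comes after it, the mean at A ran from 1.92% before C to 2.83% before A in Col and from 2.30% before C to 3.31% before A in chr2.

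The mean A/C rate of UBQ4 lay somewhat higher in chr2, a difference that passed no test over the amplicons. Both chr2 libraries (2.63% and 2.64%) were above both Col libraries (2.31% and 2.29%), a ratio of 1.14 (95% interval 1.02 to 1.28). With a size factor per library, taken as the median ratio of A/C rates over all amplicons, the chr2 to Col ratio was 1.11 (95% interval 0.925 to 1.33) and did not pass limma's test over the 19 amplicons (adjusted p = 0.572). The unscaled ratio did not pass it either (limma adjusted p = 0.299, unadjusted p = 0.0333). The exact permutation test over the 4 libraries gave p = 0.333, the smallest it can give. A higher mean in chr2 was not particular to UBQ4, and was found in 14 of the 19 amplicons with and without the size factor.

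The scaling set how large the ratio was. With a factor from the mean rates of the other mRNAs of the series, MYC2 (which encodes a transcription factor of jasmonate signalling) and MPK3 (which encodes a mitogen-activated protein kinase), the ratio was 1.02 (95% interval 0.880 to 1.18, limma adjusted p = 0.955). Unscaled, the mean of MYC2 was 2.39% in Col and 2.71% in chr2, and that of MPK3 2.54% and 2.83%. The factor from these 2 mRNAs moved the median log2 difference over A/C positions of all amplicons from 0.0076 to -0.11. The T mean of UBQ4 was 0.155% and 0.178% in Col and 0.120% and 0.170% in chr2, so that the genotypes overlapped at this control base. The G mean was 0.152% and 0.157% in Col and 0.151% and 0.138% in chr2, where both chr2 libraries were below both Col libraries. The share of second bases described below was also higher in chr2 than in Col, with and without DMS, and its part in the A/C difference was not tested.

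No single UBQ4 A/C position passed the test between chr2 and Col. By edgeR on the 4 DMS libraries, 0 of 130 A/C positions passed (0% of 2594 in all amplicons), 0 had an unadjusted p under 0.05, and the smallest adjusted p was 0.721. DESeq2 also called 0 of 130 in UBQ4 (11.7% of 2594 in all amplicons), with 2 at an unadjusted p under 0.05 (453 of 2594 in all amplicons). Among the 159 G/T control positions edgeR called 0 (0% of 2833 in all amplicons), with 17 at an unadjusted p under 0.05 (112 of 2833 in all amplicons). At 12 of these 159 a difference passed DESeq2's test, 5 higher and 7 lower in chr2 (8.22% of 2833 in all amplicons). Over the 130 A/C positions, edgeR's median log2 difference was 0.12, with 77 positions higher and 53 lower in chr2. It was 0.17 with no size factor and -0.0026 with the MYC2 and MPK3 factor. The 159 G/T positions went the other way, with a median of -0.165, 61 higher and 98 lower in chr2 (median -0.027 over all amplicons). The DMS response, DMS over mock, passed the test of a difference between genotypes at 0 of 130 A/C positions by edgeR (0% of 2597 in all amplicons) and at 0 by DESeq2 (2.00% of 2597), with 0 at an unadjusted p under 0.05 by each.

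The ranges of the unscaled rates were apart at part of the positions. Both chr2 libraries were above both Col libraries at 46 of 130 A/C positions (18.8% of 2594 in all amplicons) and below both at 12 (13.8% of 2594). Between the primer ends 41 of 109 were above and 7 below. The share over all amplicons was not computed for that stretch, so these counts have no background there and are not read as particular to UBQ4. In unscaled means, 80 of these 109 were higher in chr2 and 29 lower. With the size factor, 72 were higher and 37 lower by edgeR. The median log2 difference was then 0.17 in UBQ4 and 0.029 in all amplicons, primer ends left out.

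Of the 5 positions with the smallest p for a higher rate in chr2, only A150 lies between the primer ends. It had 1.97% and 1.87% in Col and 3.06% and 3.49% in chr2, with 0.0583% and 0.0484% in the mocks. Its difference of 0.73 on the log2 scale did not pass (edgeR adjusted p = 0.911). The others, A295, A294, C5 and C279, had means of at most 0.0647% with DMS and at most 0.0661% in the mocks, and edgeR adjusted p between 0.773 and 0.901.

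Of the 5 with the smallest p for a lower rate in chr2, A108 and A64 lie between the primer ends. A108 had 0.832% and 1.40% in Col and 0.742% and 0.552% in chr2, and A64 had 1.34% and 2.40% in Col and 1.39% and 0.842% in chr2. The log2 difference was -0.84 at A108 and -0.80 at A64, and neither passed (edgeR adjusted p = 0.911 and 0.955). C3, C21 and A15, in the primer end, had means of at most 0.147% and edgeR adjusted p between 0.721 and 0.945.

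**Figure D3:**
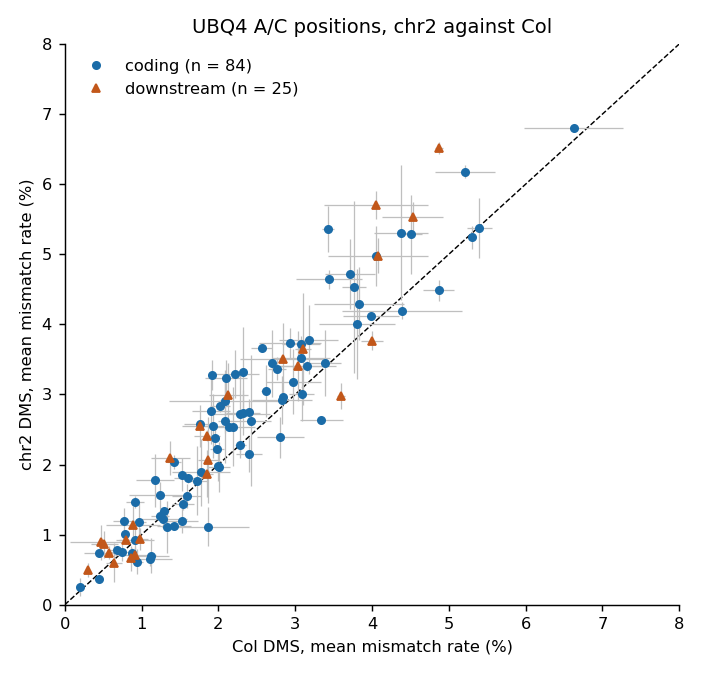
Mean mismatch rate in percent of the 2 chr2 DMS libraries (vertical axis) against that of the 2 Col DMS libraries (horizontal axis) at the 109 UBQ4 A/C positions between the primer ends, with circles for coding positions and triangles for positions after the stop codon. Grey lines span the 2 libraries of a genotype and the dashed line marks equal rates, above which 80 of the 109 positions lie.

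The pattern along UBQ4 was much alike in the 4 DMS libraries. Across the 109 positions, Pearson's r was 0.915 between the Col libraries, 0.900 between the chr2 libraries and 0.949 between the means of the 2 genotypes. Pairs of 1 Col and 1 chr2 library had r between 0.878 and 0.922, so libraries of different genotypes were about as alike as those of the same one. Positions of a library share its reads and RNA and are not independent, and r is given as a description.

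Replicates nonetheless differed by more than counting error. The 95% Wilson intervals of the 2 Col libraries were apart at 74 of 109 positions and those of the 2 chr2 libraries at 77, while those of the mocks were apart at 4. The median difference between replicates was 18.8% of their mean in Col and 23.3% in chr2. Between the mocks, which are of different genotypes and not replicates, it was 19.6%. Mock rates were low (medians of 0.0422% and 0.0413%), and intervals at low rates are wide relative to the rate. The count of 4 therefore does not show that the mocks were more alike. PCR reads without molecular identifiers are not independent molecules, so these intervals cover counting error only.

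At 8 positions, 1 other base made up over 5% of reads in both mocks, where no DMS was used. All 8 lie in the coding part, 7 of them at the third position of a codon, and they are written with the reference base first and the other base last. The capitals of the third printed sequence mark them. At all 8 the change leaves the meaning of the codon as it is, whereas 22.2% of the 594 single-base changes possible in these codons and the stop codon would do so. At least 99.2% of the Col mock mismatches at each position were that 1 base, and none of the other 18 amplicons held a position over 5% in both mocks.

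The first 3 of them, A28C (an ACA codon to ACC), T31C (ATT to ATC) and G76A (CCG to CCA), had the largest shares. Without DMS, 19.2%, 21.6% and 18.9% of Col reads carried the other base. The shares of chr2 were 20.8%, 23.4% and 20.2%. At T31C, the highest, the 95% Wilson interval ran from 21.3% to 21.8% in Col and from 23.1% to 23.7% in chr2, so that the mocks differed there by more than counting error.

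The next 4, G103A, G106A, G124C and T127A, lie within 25 nt. Their shares without DMS were 11.5%, 11.4%, 11.5% and 11.9% for Col, and 12.0%, 11.8%, 12.6% and 13.0% for chr2. They thus lay close together and below those of the first 3. G198A, which turns the TGA stop codon to TAA, had 6.69% in Col mock and 7.51% in chr2 mock. The shares thus stepped down from the 5′ to the 3′ side of the coding part.

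With DMS the other base was rarer at all 8 positions, and every DMS library was below both mocks. T31C, for example, stood at 8.09% and 8.65% in Col with DMS and at 10.8% and 10.3% in chr2 with DMS. The ratio of DMS to mock lay between 0.306 and 0.447 in Col and between 0.311 and 0.521 in chr2. None of the 8 passed edgeR's test of total mismatches against mock when the 5% limit was lifted (adjusted p = 0.795 to 0.908 in chr2 and 0.875 to 0.889 in Col).

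The chr2 share was above the Col share at all 8 positions in both the mock and the DMS libraries. With DMS it was 10.6% ± 0.373 in chr2 against 8.37% ± 0.397 in Col at T31C, and 3.48% ± 0.152 against 2.82% ± 0.202 at G198A. The exact permutation p was 0.333 at each, the smallest it can give, and edgeR called none of the 8 between genotypes (adjusted p of at least 0.998). The 12 other Arabidopsis ubiquitin genes listed for comparison (UBQ1 to UBQ14 without UBQ4 and UBQ7) are not among the amplicons, so the source of these reads was not tested.

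Position 28 carried both kinds of mismatch. Reads with a base other than A or the C of A28C made up 2.28% and 2.61% in Col with DMS and 2.22% and 1.40% in chr2 with DMS, against 0.0195% and 0.0317% without DMS. The other A positions of the loop at 27 to 36 had 2.10% to 5.76% over the 4 DMS libraries.

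After the stop codon, 4 positions had a rate of 1% to 5% in both mocks, A232T, T269G, G271A and C276G. At T269G the other base was carried by 1.11% of reads in Col mock and 1.30% in chr2 mock, and at G271A by 1.07% and 1.25%. With DMS these 2 shares were 0.538 and 0.522 times the mock in Col and 0.600 and 0.525 times in chr2, and the total mismatches did not pass the test (edgeR adjusted p of at least 0.882 in both genotypes). At C276G it was 0.873% and 1.00% without DMS, and 0.802% ± 0.161 (Col) and 0.995% ± 0.107 (chr2) with it. At A232T it was 1.43% and 1.38% without DMS, and 2.02% ± 0.277 and 2.51% ± 0.231 with it.

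**Figure D4:**
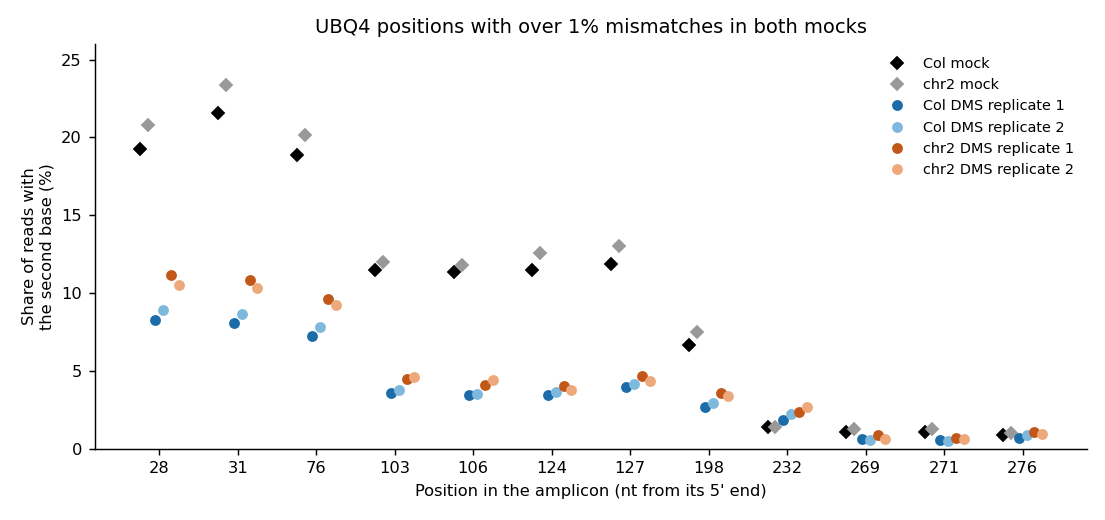
Share of UBQ4 reads in percent (vertical axis) that carry the second base at the 12 positions with over 1% mismatches in both mocks (horizontal axis, nt from the 5′ end), with diamonds for mock and circles for DMS libraries. At the first 8 positions all DMS libraries lie below both mocks. Mock shares there range from 21.6% at T31C to 6.69% at G198A in Col, and from 23.4% to 7.51% in chr2.

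UBQ4 resembled the other mRNAs more than the primary microRNA transcripts (pri-miRNAs) in how many positions reacted. Its median A/C rate between the primer ends was 2.09% ± 0.0939 in Col and 2.48% ± 0.120 in chr2. MYC2 had 2.28% ± 0.118 and 2.51% ± 0.112, and MPK3 2.29% ± 0.0780 and 2.50% ± 0.206. The medians of the 16 pri-miRNAs ran from 0.0329% to 0.936% in Col and from 0.0307% to 1.14% in chr2, all below UBQ4.

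A rate of at least 0.5% in all 4 DMS libraries was found at 90.8% of the UBQ4 positions, 90.8% of those of MYC2, 82.5% of those of MPK3 and 0% to 41.7% in the pri-miRNAs. By means the order was different, since 1 pri-miRNA was above UBQ4 in each genotype, and not the same one. It was pri-miR156b in Col (2.44% against 2.30%) and pri-miR390a in chr2 (3.36% against 2.64%). The Gini index of all 16 pri-miRNAs was above that of UBQ4 in both genotypes, from 0.590 to 0.950 in Col. By the root mean square difference of log2 mean rates over all 6 libraries, mocks included, pri-miR159b (0.340), pri-miR159a (0.391) and MYC2 (0.406) were the most like UBQ4. With DMS alone, the means of MYC2 (2.39% in Col and 2.71% in chr2) were closer to those of UBQ4 (2.30% and 2.64%). Those of pri-miR159b were 1.68% and 2.15%, and those of pri-miR159a 1.76% and 1.83%. The mock means of MYC2 (0.0567% and 0.0568%) were below those of UBQ4 (0.0897% and 0.0943%).

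**Figure D5:**
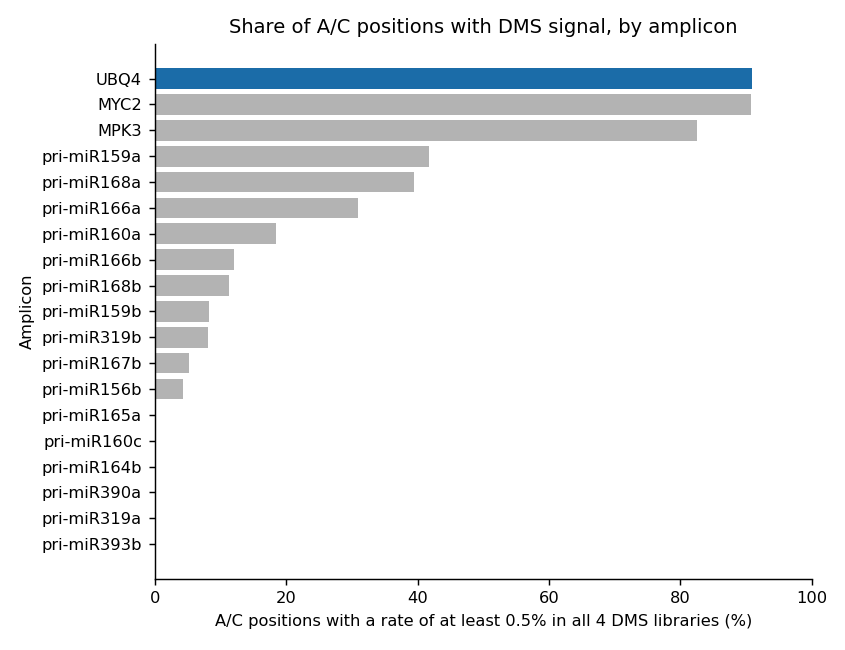
Percentage of A/C positions between the primer ends with a mismatch rate of at least 0.5% in all 4 DMS libraries (horizontal axis), for each of the 19 amplicons (vertical axis), with UBQ4 in blue. UBQ4 and MYC2 stand at 90.8%, MPK3 at 82.5%, and no pri-miRNA exceeds 41.7%.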

How the data were processed

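The authors deposited counts of base calls, 1 column for each of the 4 bases beside the reference base of every amplicon position, per the file headers. SAMtools 1.5, Picard, BWA and cutadapt appear in the submitters' processing notes, without roles. A genome build was not given in the sources used here, and genome coordinates are left out. Per the labels' protocols, 5 µg of nuclear RNA was reverse transcribed and amplified with primers for each target, and the PCR products were pooled and fragmented (50 to 200 bp).

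All 4 base counts of a position were added up as its coverage, and the percentage of bases that were not the reference was its mismatch rate. Tested positions had coverage of at least 100 in each library, at most 5% mismatches in each mock, and at least 10 mismatches. Mismatch counts were tested with edgeR 4.0.16 (R 4.3.3) with log coverage as offset, over all amplicons, with DESeq2 1.42.0 as an alternative. DMS against mock had no size factor, and genotypes were compared with one (0.962 to 1.01). Means and Gini indices per amplicon were tested with limma 3.58.1, and single values by two-sided exact permutation (SciPy 1.17.1, Python 3.11.15). Folds came from ViennaRNA 2.7.2.

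Named positions were the 10 highest A/C rates with DMS, the 5 smallest p in each direction between genotypes, the 3 lowest unpaired and 3 highest paired, the 3 highest G/T, all with over 1% mismatches in both mocks, and every loop and long helix. The 26-nt ends were set after the data were seen. Members, lists and tests were chosen with earlier results of these data known. The gene name was matched in a name table (assembly TAIR10.1), as were the 12 other ubiquitin genes. Alternatives were another tool, filter or size factor, a replicate block, other folds, and each DMS library left out.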

Additional observations from a re-analysis of the deposited data

Results flagged for a closer look

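At UBQ4 position 28, which was kept out of the means because a second base was frequent without DMS, the mismatches other than that base averaged 2.13% over the 4 DMS libraries, above both mocks (0.0195% and 0.0317%). It is listed because the signal lies outside the positions used. At 3 positions within the primer ends, both DMS libraries of Col lay below the Col mock and both of chr2 above the chr2 mock. At C5 the mean DMS rate minus mock was -0.00468 percentage points in Col and 0.0217 in chr2. At C279 it was -0.0150 and 0.0115, and at A294 -0.0109 and 0.0102. The DMS response did not differ between genotypes at these positions by edgeR's interaction test (adjusted p = 0.999 at each). All of these rates are at the mock level.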

How the results depend on the processing

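With 1 DMS library left out, the UBQ4 A/C positions above mock went from 85 (Col) and 84 (chr2) to 0, range 0 to 0 in both genotypes. These fits have fewer libraries, and direction at the 10 highest positions stayed the same. DESeq2 called 11 UBQ4 G/T positions above mock in Col (1.83% in all amplicons), 5 in chr2 (1.58%) and 12 between genotypes (8.22%), where edgeR called 0 each in UBQ4 and in all amplicons, and the cause was not tested. DESeq2 on A/C with the primer ends left out, chosen after seeing the data, called 103 of 109 in Col (45.3% of 2166 in all amplicons) and 105 in chr2 (45.8%). The other filters and a size factor kept these counts between 83 and 87, and 0 of the UBQ4 A/C positions passed a genotype comparison under any setting run. The agreement with the fold moved with the fold used. Unpaired over paired rates were 1.61 and 1.60 (Col and chr2) with the partition function, 1.38 and 1.42 with spans of at most 100 nt, 1.31 and 1.26 with primer ends kept, and 1.36 and 1.31 with no mock limit. The area under the curve was 0.741 and 0.743, 0.707 and 0.705, 0.588 and 0.582, and 0.616 and 0.610 in the same order. Leaving out 1 library gave ratios of 1.27 to 1.28 and 1.22 to 1.22, and areas of 0.604 to 0.610 and 0.595 to 0.607. The mean ratio of chr2 to Col stayed above 1 under all settings, 1.09 to 1.12 with 1 library left out. Libraries of the same replicate number did not clearly deviate together (r = 0.102 over 109 UBQ4 positions and 0.0192 over 2600 of all amplicons), and nothing in the labels pairs them. With the replicate block the mean ratio was 1.11 (limma adjusted p = 0.859), the Gini difference 0.00988 (adjusted p = 0.752), and 0 positions differed in rate or in DMS response. No replicate block was fitted for DMS against mock, since the mocks carry no number. Whether more depth would change the UBQ4 calls was not tested.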
